A study of Mus musculus with 8 samples.

Results

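The 38 genes described here encode the contractile apparatus of skeletal muscle and the machinery that triggers and fuels it. They were found by exact match of their symbols in the deposited table of CAGE tag clusters. CAGE reads RNA from its capped 5′ end, and a cluster is a short stretch of the genome where such ends fall together. Of the 38 symbols, 37 had at least 1 cluster, and these genes held 239 of the 46376 clusters that carried any gene symbol. The table covers facial skin from 8 C57BL/6 mice at postnatal day 28. Lesional skin came from 4 Cre-positive mice homozygous for a floxed Ikk2 allele, and non-lesional skin from 4 mice given only as Control in the genotype label. Ikk2 is the kinase gene Ikbkb of the NF-κB pathway, and the Cre line is spelled Nestin-cre in the series text but Nectin-cre in the sample labels. No label says which alleles the controls carry, and lesion and genotype cannot be told apart in this design.

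The 8 columns of values bear names that match none of the sample labels, so they were not used. The amount of muscle RNA in each library, and its difference between lesional and control skin, were therefore not measured here. The values below are positions, numbers and spans (end minus start) of clusters in the table of the series as a whole. They say nothing of expression level. Whether the span or number of clusters moves with expression level was not tested.

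Skeletal muscle contracts when myosin motors of the thick filament pull on actin of the thin filament, within sarcomeres joined end to end at Z-discs. Calcium released from the sarcoplasmic reticulum binds troponin, which moves tropomyosin and frees the actin. Fast and slow fibres build these parts from different members of the same gene families, and slow fibres share several of theirs with the heart. The thin muscles of the face and the sheet of muscle beneath rodent skin are skeletal muscle, and skin also holds smooth muscle in vessels and at hair follicles.

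Nearly all fast and slow fibre genes had a cluster, and the narrowest were among the slow genes. All 14 fast fibre genes had a cluster, and in all 14 the widest cluster spanned at least 10 bp (median 126.5 bp, from 54 to 205 bp). Of the 5 slow fibre genes, 4 had a cluster, and in 2 of these 4 the widest spanned only 4 bp. The median of their widest spans was 27.5 bp, against 110 bp over all 16094 genes with a cluster. The slow median rests on 4 genes, and the difference between the lists was not tested. Mybpc1, the slow form of myosin-binding protein C, was not on the slow list and had a widest cluster of 64 bp. The fast genes held 87 clusters (median 4 per gene) and the slow genes 6 (median 1.5 per gene). At least 2 clusters were found in 11 of the 14 fast genes (78.6%) and 2 of the 4 slow genes, where the background was 54.3%. For comparison, 63.3% of protein-coding genes in the RefSeq gene table had a cluster, and the widest spanned at least 10 bp in 91.2% of all genes with a cluster.

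**Figure D1:**
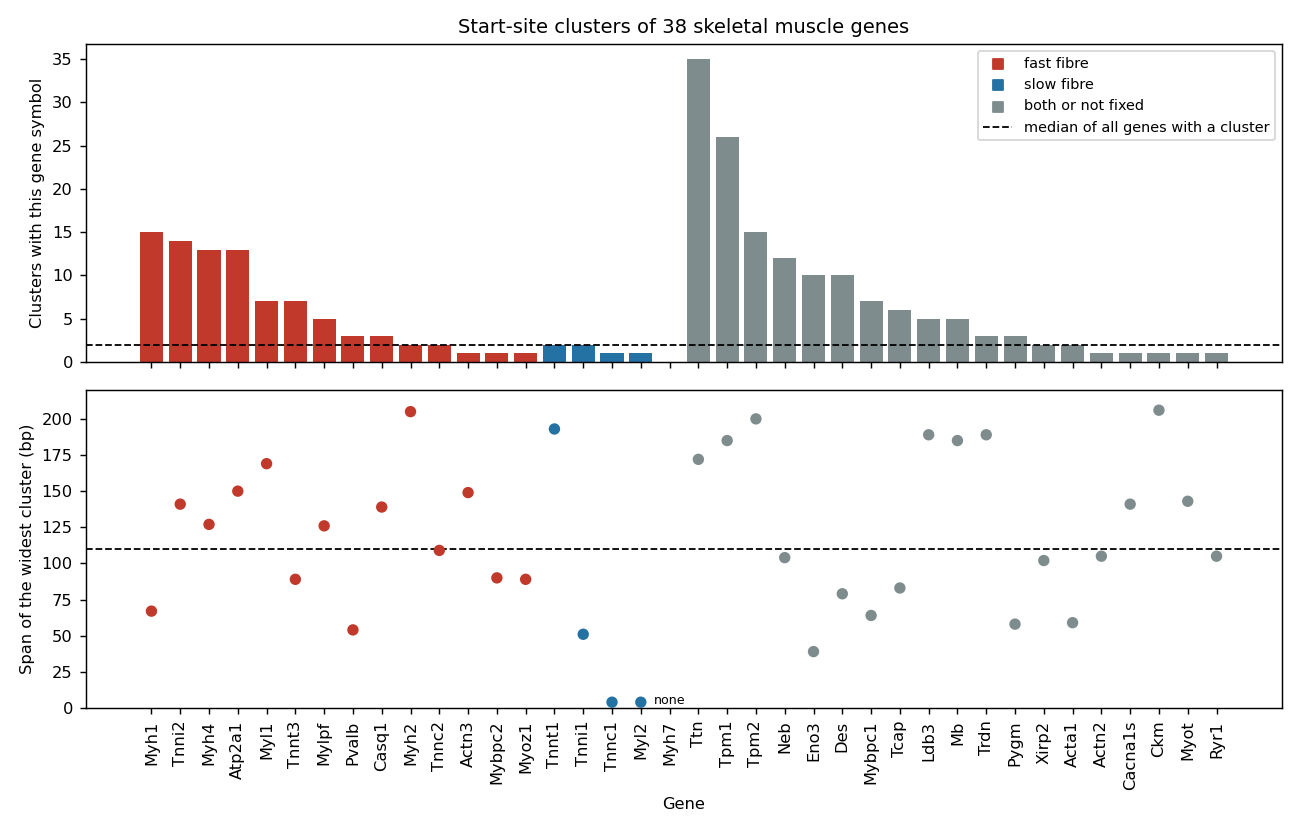
Upper panel, number of clusters that carry each gene's symbol; lower panel, span of its widest cluster in bp, for fast fibre genes, slow fibre genes and genes of both or no fixed fibre type. Dashed lines are the medians of all genes with a cluster (2 clusters, 110 bp); Ttn is highest with 35 clusters, Tnnc1 and Myl2 have widest clusters of 4 bp, and Myh7 has none.

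The sequences around the annotated start sites are shown for 7 of these genes. They are the 6 members with a TATA box motif in the range of positions given below, together with Myh2, the neighbour of Myh1 and Myh4. Each holds the 50 bases before the RefSeq start and the first 10 bases from it, on assembly GRCm38.p6, 5′ to 3′ on the strand of the gene. Capitals mark the motif of the TATA box, spelled with any base at N as TATANA, where its first base lay 40 to 20 bases before the start.
Myh2 (chr11:67170977-67171036, plus strand): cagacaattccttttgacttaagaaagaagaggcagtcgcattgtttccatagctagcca
Myh1 (chr11:67200052-67200111, plus strand): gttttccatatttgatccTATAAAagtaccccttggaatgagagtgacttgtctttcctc
Myh4 (chr11:67237762-67237821, plus strand): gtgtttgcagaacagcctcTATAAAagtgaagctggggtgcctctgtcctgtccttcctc
Ckm (chr7:19411044-19411103, plus strand): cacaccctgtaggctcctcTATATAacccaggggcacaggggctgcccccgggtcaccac
Tnnt1 (chr7:4515966-4516025, minus strand): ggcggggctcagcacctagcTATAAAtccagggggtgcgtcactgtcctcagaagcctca
Tnnc1 (chr14:31208262-31208321, plus strand): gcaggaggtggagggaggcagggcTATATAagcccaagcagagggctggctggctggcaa
Myh7 (chr14:54994540-54994599, minus strand): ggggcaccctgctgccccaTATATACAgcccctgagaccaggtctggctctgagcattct

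The deposited clusters lie on mm9, and no position was converted, so which cluster corresponds to a given RefSeq start was not determined here. The widest cluster of a gene, from which distances are given below, need not be the one at its RefSeq start. Myh1 and Myh4 both held TATAAA, first base 32 and 31 bases before the start. The slow troponin T gene Tnnt1 held the same letters 30 bases before the start. In Ckm and Tnnc1 the letters were TATATA, at 31 and 26 bases before the start. Myh7 had 2 overlapping matches, at 31 and 29 bases before 1 of its 2 RefSeq starts, the one shown. Myh2 had no match in this range of positions, but its window held TATAAA after the start, directly after the last base shown. The genes with this motif had widest clusters from 4 bp (Tnnc1) to 206 bp (Ckm), and Myh7 had no cluster although its window held the motif.

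Myosin heavy chains form the motor itself. Myh2, Myh1 and Myh4, the genes of the fast chains IIa, IIx and IIb, lie in this order on the plus strand of chromosome 11. Myh2 had a cluster of 205 bp (mm9 66984520 to 66984725) and a second, narrower one starting 5 bp upstream. Myh1 had 15 clusters, of which the widest spanned 67 bp (67013587 to 67013654). They fell into 2 stretches, 7 clusters about the widest one and 8 clusters from 19195 to 20528 bp downstream of it. Myh4 had 13 clusters, with 127 bp for the widest (67054295 to 67054422) and 54 bp for a cluster 2985 bp upstream (67051310 to 67051364). The widest clusters of Myh2 and Myh1 were 29067 bp apart, and those of Myh1 and Myh4 40708 bp apart. Myh7, the slow and cardiac beta chain, had no cluster under its symbol or any of 9 older symbols among those analysed here. The embryonic and perinatal chains Myh3 and Myh8, and the chains Myh13, Myh15 and Myh16 of eye and jaw muscles, had no cluster either. Myl4, a light chain gene of developing muscle on the same list as Myh3, had 3 clusters with a widest span of 60 bp. Fast heavy chain genes are closely related, and whether reads were shared between the copies was not examined, so their separate counts are uncertain.

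The light chains and binding proteins of the thick filament differed from gene to gene. Mylpf, the fast regulatory light chain, had 5 clusters with a widest span of 126 bp. Its slow and ventricular counterpart Myl2 had 1 cluster of 4 bp (chromosome 5, 122550985 to 122550989). Myl1, which encodes the fast essential light chains from alternative promoters, had 7 clusters on chromosome 1. Its wide clusters were one of 123 bp (66991919 to 66992042), one of 169 bp (66991480 to 66991649) and one of 96 bp (66981867 to 66981963), the last 9686 bp downstream of the widest. The fast myosin-binding protein gene Mybpc2 had 1 cluster of 90 bp. Mybpc1, known as the slow form of that protein and counted here among genes of no fixed fibre type, had 7 clusters, of which the widest spanned 64 bp and 2 narrow ones lay 51744 and 81713 bp downstream.

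Troponin gives the thin filament its calcium switch, and its 3 subunits exist in fast and slow forms. The fast genes Tnni2, Tnnt3 and Tnnc2 had 14, 7 and 2 clusters, with widest spans of 141, 89 and 109 bp. The slow genes Tnni1, Tnnt1 and Tnnc1 had 2, 2 and 1 clusters, with widest spans of 51, 193 and 4 bp. Thus Tnnt1 alone among slow genes had a cluster as wide as those of the fast genes (chromosome 7, 4465982 to 4466175). Tnnc1, also the cardiac troponin C gene, had its cluster at 32021501 to 32021505 on chromosome 14. In Tnni1 a second cluster, of 27 bp, lay 16134 bp downstream of the first. Tnni2 and Tnnt3 are neighbours on the plus strand of chromosome 7, where their widest clusters were 56453 bp apart.

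Actin, tropomyosin and nebulin make up the thin filament. Acta1, skeletal actin, had 2 clusters, the wider of 59 bp (chromosome 8, 126418631 to 126418690). Tpm1 had 26 clusters, the 18th highest number of all genes, and Tpm2 had 15. Both tropomyosin genes also serve other cell types, smooth muscle among them. In Tpm1 the widest cluster, of 185 bp (chromosome 9, 66897008 to 66897193), was followed by a second set from 5387 to 5755 bp downstream that included spans of 63 and 76 bp. Further clusters of 39 and 18 bp lay 16519 and 17358 bp downstream. Neb, the gene of the giant thin filament protein nebulin, had 12 clusters over 160710 bp of chromosome 2. They started with its widest, of 104 bp (52191232 to 52191336), and ended with one of 79 bp (52030626 to 52030705).

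Titin spans the sarcomere from Z-disc to M-line as a molecular spring. Ttn, on the minus strand of chromosome 2, had 35 clusters over 157034 bp, the 4th highest number of all genes. A cluster of 140 bp was the most upstream (76820490 to 76820630). The widest, of 172 bp (76686960 to 76687132), lay 133498 bp downstream of it. Of the 35, 20 spanned at least 10 bp, and the 19 of these other than the most upstream lay between 19012 bp upstream and 23481 bp downstream of the widest. The Z-disc genes were less crowded. Actn2 and Actn3, the alpha-actinins, had 1 cluster each, of 105 and 149 bp, as had Myoz1 (89 bp) and Myot (143 bp). Ldb3 had 5 clusters (189 bp), Tcap had 6 (83 bp), Xirp2 had 2 (102 bp) and Des, the muscle intermediate filament gene, had 10 (79 bp). The spans in parentheses are those of the widest cluster.

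Genes of calcium release and reuptake mostly had few clusters. The voltage sensor gene Cacna1s and the release channel gene Ryr1 had 1 cluster each, of 141 and 105 bp. Casq1, the gene of the calcium store protein calsequestrin, and Trdn, the gene of triadin, had 3 each, with widest spans of 139 and 189 bp. Atp2a1, the calcium pump of fast fibres, had 13 clusters, with 150 bp for the widest and 6 clusters over 1000 bp downstream of it. Pvalb, a calcium buffer of fast fibres, had 3, including one of 46 bp that lay 2259 bp upstream of the widest, of 54 bp.

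Of the genes that supply energy and oxygen, Ckm, muscle creatine kinase, had 1 cluster of 206 bp (chromosome 7, 19996260 to 19996466), the widest of any member. The same cluster had also been given to the predicted gene Gm17405, and which of the 2 genes gave rise to it cannot be told from the table. No other member shared a cluster with another symbol. Mb, the gene of myoglobin, had 5 clusters (widest 185 bp), Pygm, muscle glycogen phosphorylase, had 3 (widest 58 bp) and Eno3, muscle enolase, had 10. The widest cluster of Eno3 spanned 39 bp, below every other member outside the slow list.

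Members had more clusters per gene than genes in general, but not wider ones. Their median was 3 clusters, against 2 for all genes with a cluster. Of the 37, 27 had at least 2 clusters (73.0%, background 54.3%), 17 had at least 5 (45.9%, background 18.3%) and 10 had at least 10 (27.0%, background 5.06%). The median widest span was 109 bp, against 110 bp for all genes, and it reached 100 bp in 23 members (62.2%, background 56.0%). Over all of their clusters, spans were shorter. Of the 239 clusters, 140 spanned less than 10 bp (58.6%), against 48.3% of all clusters with a gene. No test was made of these differences, as the genes are not replicates and were chosen as a group of known muscle genes.

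The further clusters of members lay far from the widest more often than over all genes. Of 202 clusters other than the widest, 77 (38.1%) lay over 1000 bp downstream of it, against 17.0% over all genes. The share pools clusters over genes, and most of the 77 came from few members. Ttn held 15 of them, Tpm1 14, Neb 10, Myh1 8 and Atp2a1 6. A further 25 (12.4%, all genes 7.18%) lay over 1000 bp upstream, and 15 of these belonged to Ttn. The share within 100 bp was similar, at 13.9% and 13.8%. Without Ttn the share over 1000 bp downstream was 36.9% and the share upstream 5.95%. Clusters in 2 or more stretches over 1000 bp apart were found in 17 members (45.9%), against 15.5% of all genes. Gene length was not examined, and long genes offer more room for distant clusters. No test was made of whether they mark starts of their own.

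**Figure D2:**
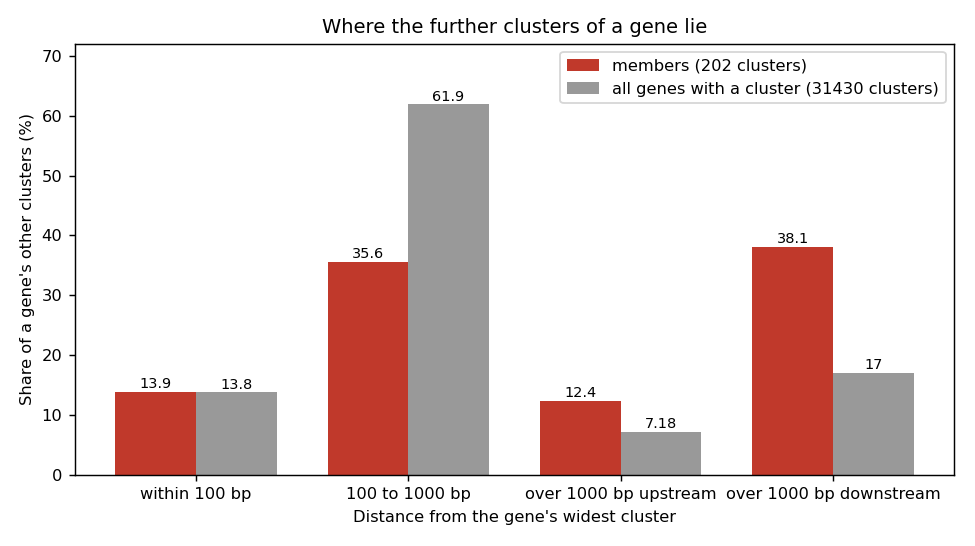
Share, in percent, of the clusters other than the widest that lie at each distance from the widest cluster of the same gene, for the members and for all genes with a cluster. Members have 38.1% over 1000 bp downstream where all genes have 17.0%, and 35.6% between 100 and 1000 bp where all genes have 61.9%.

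**Figure D3:**
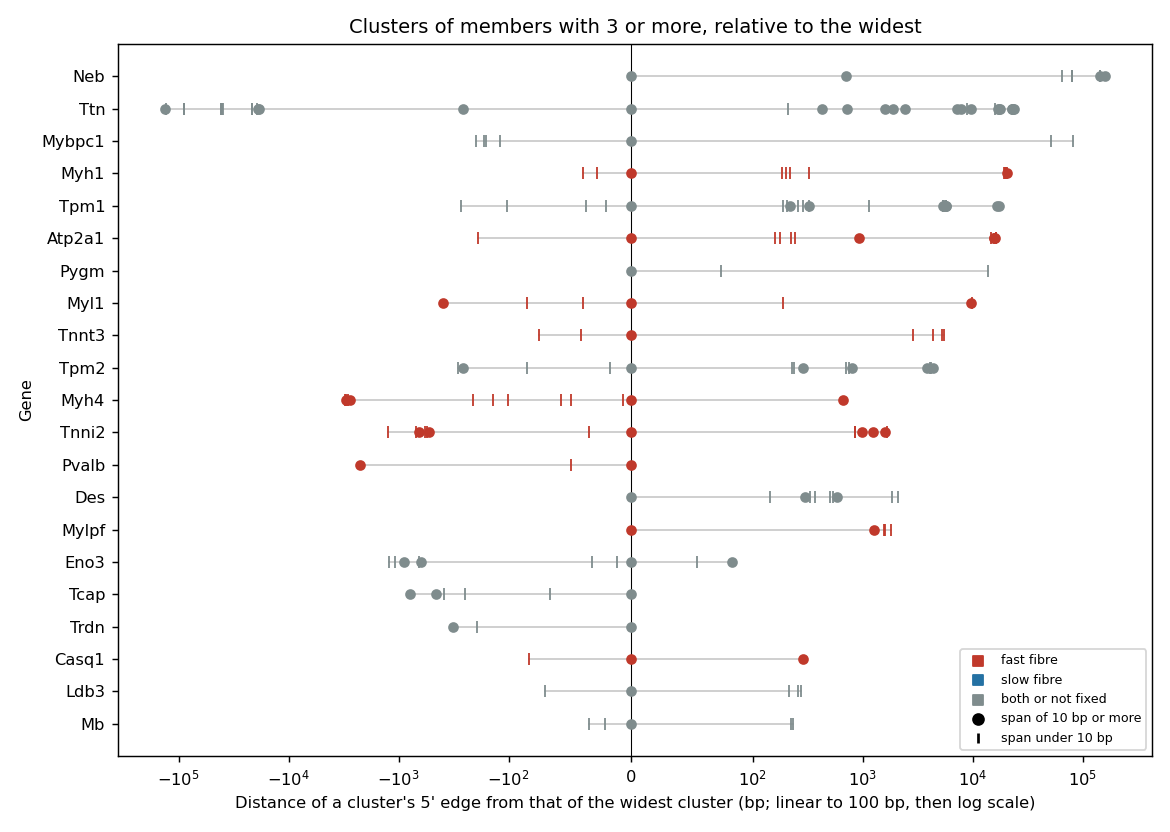
Position of each cluster relative to the widest of the same gene, in bp, for the members with 3 or more clusters; the axis is linear to 100 bp and logarithmic beyond. Circles are spans of at least 10 bp and ticks are shorter ones; the sarcomere giants Ttn and Neb reach 133498 bp upstream and 160631 bp downstream, whereas Mb, Ldb3 and Casq1 stay within 500 bp.

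Clusters without a gene symbol also lay inside members, nearly all on the strand of the gene. Between the outermost clusters of each member, widened by 1000 bp on either side, there were 245 such clusters on the same strand and 3 on the opposite strand (98.8% on the same strand). Over all genes, counted in the same way, 57.9% were on the same strand. Among genes whose clusters extended over more than 10000 bp, the share was 99.6% for the 10 members and 83.4% for all 1468 genes. Ttn held 97 of the same-strand clusters, Neb 48, Myh1 39, Atp2a1 18 and Xirp2 16. Without Ttn, Neb and Myh1 the counts were 61 and 3 (95.3%). Any same-strand cluster without a symbol was found in only 14 members (37.8%), against 9.99% of all genes. At least 10 were found in 5 members (13.5%), against 0.702% of all genes. Among genes whose clusters extended over more than 10000 bp, at least 10 were found in 5 of the 10 members, against 7.15% of all 1468 genes. The same-strand clusters without a symbol within Ttn spanned from 2 to 182 bp with a median of 11 bp, and 49 of the 97 spanned at least 10 bp. In Neb and Myh1 the medians were 3 bp. The 28862 bp between the widest clusters of Myh2 and Myh1 held 11 plus-strand clusters without a symbol and 0 minus-strand ones. Between Myh1 and Myh4 the counts were 42 and 0, and the 39 counted for Myh1 above are among these 42. The interval between Myh1 and Myh4 also held 26 named clusters, so it is not a stretch between genes. Of these 26, 23 carried the symbol of Myh1 or Myh4 and the rest carried other symbols.

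**Figure D4:**
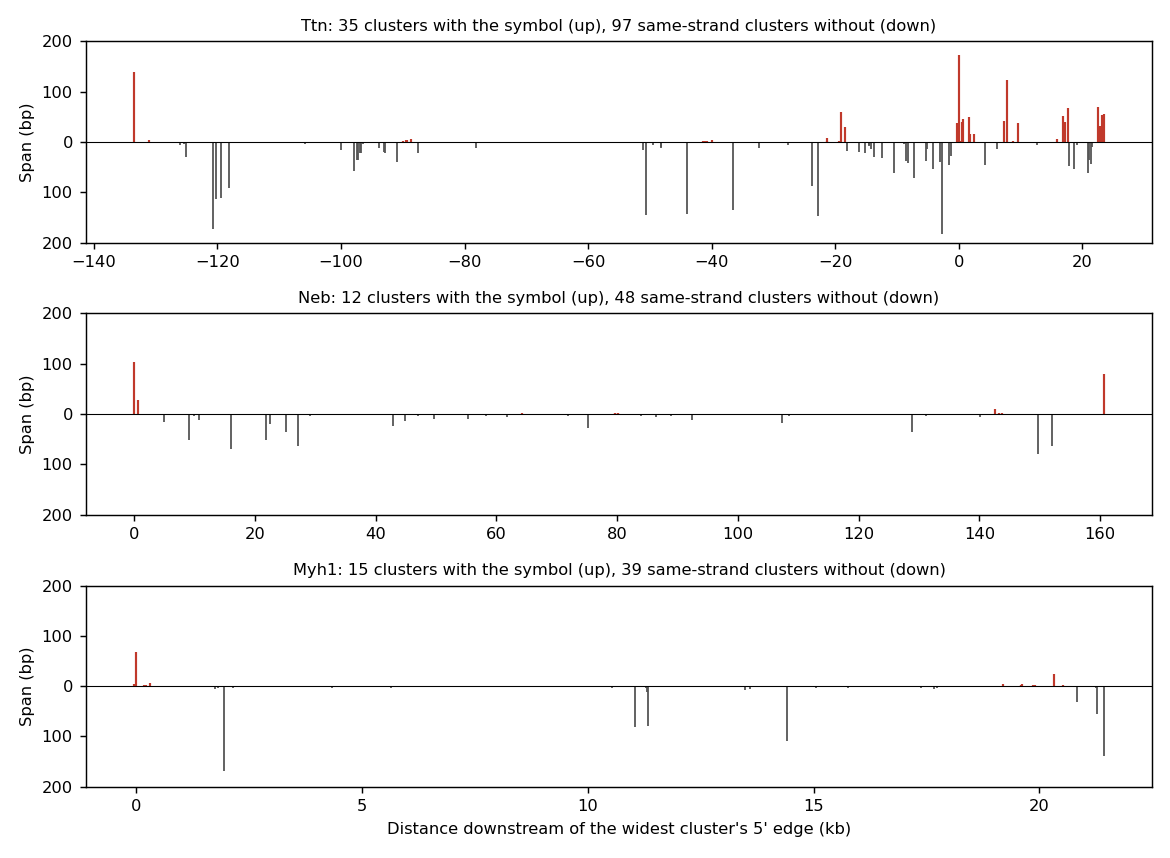
Span in bp of each cluster against its distance in kb from the widest cluster of Ttn, Neb and Myh1. Lines upward are clusters with the gene's symbol (35, 12 and 15) and lines downward are same-strand clusters without a symbol (97, 48 and 39). Those without a symbol are scattered, with gaps, over most of the range of the named clusters.

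Promoter windows of 250 bases before to 50 bases after the RefSeq start were matched by symbol for 30 of the 38 members, giving 37 windows. For the 29 of these members with a cluster, all 35 windows were on the strand of the clusters. The motifs searched were chosen after the windows had been seen. Letters of the E-box, CANNTG, the site of the myogenic factor MyoD and its relatives, were found on either strand in 26 of 30 members (86.7%, all 68.5%, here and below over the 10376 genes with a cluster and a window). Its form CAGCTG, which lies within the first motif, was found in 16 (53.3%), against 18.5% of all. MCAT (letters CATTCC), a site of TEAD factors, was found in 11 members (36.7%, all 14.8%). A MEF2 site was found in 5 (16.7%, all 2.40%) and a CArG box, the site of serum response factor, in 3 of the 30 (all 1.73%). TATANA on the strand of the gene, in the range of positions given above, was found in 6 members (20.0%, all 3.53%). By fibre type, CAGCTG was found in 5 of 10 fast genes and 2 of 5 slow genes with a window, a MEF2 site in 3 of 10 and 0 of 5, and a CArG box in 1 of 10 and 0 of 5. TATANA was found in 2 of 10 and 3 of 5, CANNTG in 8 of 10 and 5 of 5, and MCAT in 4 of 10 and 2 of 5. Myh7 counts among the slow genes in each of these. No fibre type had the higher share throughout. The median GC content was 58.3% over the members' windows and 52.7% over all 32851 RefSeq windows, those of genes without a cluster included. It was not computed for the 10376 genes alone, and its part in these shares was not tested. Matches are descriptions of the letters, and binding was not measured.

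The windows of Myh4 and Acta1 are shown whole because they held several of these motifs at once, with matches in capitals (CANNTG in general is not marked). In Myh4 the capitals are, in order, MCAT (231 bases before the start), a MEF2 site (182), a CArG box (104), CAGCTG (67) and TATANA (31). In Acta1 they are CAGCTG (221 bases before the start), a CArG box (73) and MCAT (46). The Acta1 window also held the letters TATATAAA, nearer to the start than the range searched for TATANA, so they are not in capitals. Both are on GRCm38.p6.
Myh4 (chr11:67237562-67237861, plus strand): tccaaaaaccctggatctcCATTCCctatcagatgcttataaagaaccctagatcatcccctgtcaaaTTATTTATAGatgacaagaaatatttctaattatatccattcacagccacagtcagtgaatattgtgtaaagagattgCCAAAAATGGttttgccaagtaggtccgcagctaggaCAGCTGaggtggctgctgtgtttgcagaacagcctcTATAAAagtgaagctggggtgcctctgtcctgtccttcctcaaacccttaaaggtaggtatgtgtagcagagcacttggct
Acta1 (chr8:123894726-123895025, minus strand): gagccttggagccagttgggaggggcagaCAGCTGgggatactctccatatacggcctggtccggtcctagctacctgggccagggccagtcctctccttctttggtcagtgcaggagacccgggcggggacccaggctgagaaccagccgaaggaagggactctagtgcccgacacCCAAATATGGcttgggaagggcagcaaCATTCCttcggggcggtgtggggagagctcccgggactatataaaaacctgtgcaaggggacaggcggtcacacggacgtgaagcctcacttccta

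**Figure D5:**
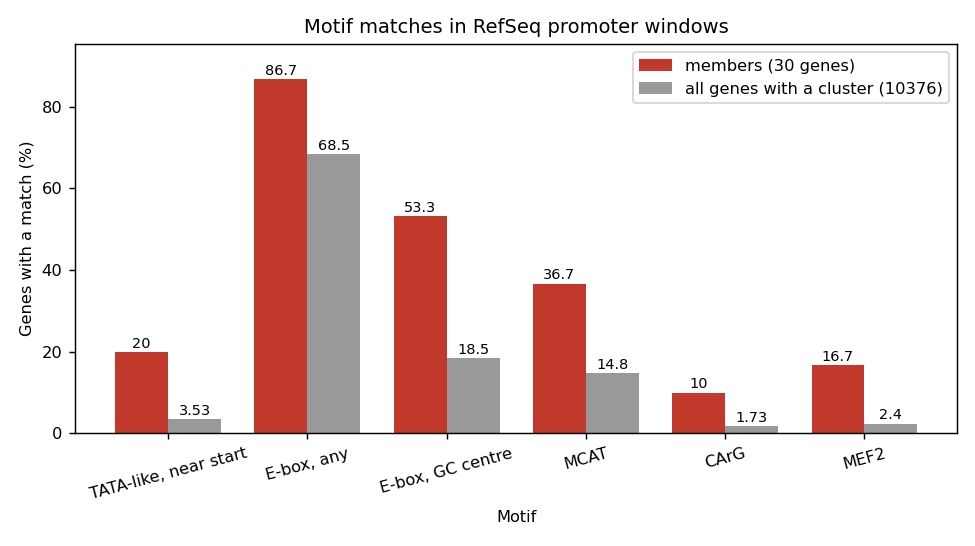
Share of genes, in percent, with at least 1 match of each motif in the RefSeq promoter window, for the 30 members and for all 10376 genes with both a cluster and a window. The 30 members include Myh7, which has no cluster. The E-box with a GC centre is CAGCTG, found in 53.3% of members and 18.5% of all genes.

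Genes of related function were looked up by further lists. The background for these counts is 63.3% of protein-coding genes with a cluster, and that for the spans is a median of 110 bp over all genes with one. Differences between the lists and the background were not tested. Of 24 further sarcomere and membrane genes, 23 had a cluster (median widest span 121 bp), including Klhl40 and Klhl41 under their older symbols Kbtbd5 and Kbtbd10. All 14 genes of muscle energy supply had one (median 93 bp). The myogenic regulator and satellite cell list had 10 of 12 genes with a median widest span of 31 bp. Among them Myod1, a master regulator of the lineage, had a cluster of 32 bp, Myf6, active in mature fibres, had one of 71 bp, and Pax7, the marker of satellite cells, had one of 13 bp. The clusters of Myog, Six4 and Myf5 spanned 6, 3 and 2 bp, and Msc and Tcf21 had none. Neuromuscular junction genes stood at 9 of 11 (median 45 bp), with acetylcholine receptor subunit genes Chrna1 at 45 bp and Chrne at 23 bp, while the fetal subunit gene Chrng had no cluster. Of the receptor clustering genes, Musk and Dok7 had widest clusters of 5 and 3 bp, and Agrn and Lrp4 of 165 and 148 bp. Of the 10 cardiac genes, 4 had a cluster, namely Nppb (38 bp), Actc1 (9 bp), Ryr2 (5 bp) and Myl3 (4 bp). The defining heart genes Myh6, Tnnt2 and Tnni3 had none. All 9 smooth muscle genes had a cluster (median 69 bp), and Des stands on that list too, so clusters under smooth muscle symbols were found beside the skeletal ones. Their part in the clusters of Des, Tpm1 and Tpm2 was not tested.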

How the data were processed

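CAGE libraries were made from total RNA of facial skin (4 lesional, 4 control samples) using a kit, per the labels. The deposited file has 1 row per tag cluster and gene. Per the submitters' processing notes, BWA and HISAT2 were used with build mm9, no versions given. No source used here gives the rules for joining tags into clusters and tying them to genes, or says whether positions count from 0 or 1, so positions are printed as deposited. The 8 columns of values match no sample label and were not used, so library depth was not analysed and the planned tests between groups were not run.

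Rows with the same position and symbol were counted as 1 with pandas 2.3.3 in Python 3.11.15. Spans of at least 10 bp were called wide. Counting and motif search were tested on simulated data. Promoter windows came from RefSeq, GRCm38.p6. No p-value was computed. All 38 members were to be accounted for, with fast and slow fibre genes one by one. The members and lists were chosen with earlier results of these data known.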

Additional observations from a re-analysis of the deposited data

How the results depend on the processing

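Counting only clusters of at least 10 bp lowered the clusters of members from 239 to 99, and joining clusters up to 100 bp apart, an alternative chosen after seeing the data, lowered them to 138. Members with 2 or more clusters went from 27 to 18 of 35 (51.4%, all genes 37.0%) with the first setting and to 22 of 37 (59.5%, all genes 43.3%) with the second. The members with any cluster went from 37 to 35 with clusters of at least 10 bp, as Myl2 and Tnnc1 had none that wide. The median widest span of slow fibre genes then rose from 27.5 to 122 bp, over 2 genes, while that of fast fibre genes stayed at 126.5 bp, so the difference in span rests on those narrow clusters. Members with distant stretches of clusters went from 17 of 37 to 11 of 35 with clusters of at least 10 bp (all genes 9.66%). With separations of 500 and 2000 bp they went to 19 and 14 of 37. No share of all genes is given at these 500 and 2000 bp separations, so those counts have no background beside them. All of these settings were chosen after seeing the data. Leaving out the cluster shared with another gene removed Ckm alone. The lower counts follow from counting fewer clusters. No paired analysis was possible because no column of values carries a sample's name, and for the same reason the planned normalizations, filters, pseudocounts and left-out replicates were not run.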
